A study of Canis lupus familiaris with 48 samples.

Results

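This account covers 85 genes of MDCK I cells that read higher after raffinose than after NaCl, out of 32704 genes in the deposited table. A gene was a member when its mean over both treatments was at least 2 counts per megaread of the library (CPM), when the raffinose mean was more than 1.6 times the NaCl mean, and when raffinose exceeded NaCl in at least 10 of 12 pairs of the same passage. Means were taken after adding 0.1 CPM, and mitochondrial genes were left out. Members were thus chosen by their CPM in the 12 raffinose and 12 NaCl libraries, and everything below on raffinose against NaCl is a description with no test. The level criterion left 11288 genes, the ratio left 88 of them, and 3 of those failed on the number of pairs.

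MDCK I is an established canine kidney epithelial line. The libraries fall into 4 groups of 12: raffinose at 500 mOsm (200 mOsm of it added raffinose), NaCl at 500 mOsm (200 mOsm added), urea at 500 mOsm (200 mOsm added) and a control at 300 mOsm in regular medium. Cells of every group grew for 144 h in DMEM/F-12 medium with serum in uncoated wells, and the treatment filled the last 24 h. Each group holds the same 12 passages of 1 cell line, numbered between 1 and 19. No gene symbols could be paired with the identifiers, so the epithelial, tubule and fibroblast markers could not be looked up, and genes are described here by identifier, position and values.

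Kidney cells of the medulla live in fluid that is more concentrated than blood, with salt and urea as its main solutes. NaCl and raffinose, a plant trisaccharide, cross cell membranes poorly, so that raising them outside draws water from the cell. Urea crosses membranes more readily and changes cell volume less. In hypertonic medium, renal cells are known to gather organic osmolytes through transporters and enzymes, many of them under the transcription factor NFAT5. NaCl also raises the concentration of ions outside the cell, and raffinose, which carries no charge, does not.

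Library totals ranged from 6.60 to 16.16 megareads in the raffinose group, from 6.77 to 14.4 in the NaCl group, from 3.915 to 15 in the urea group and from 6.08 to 16.06 megareads in the control group. The lowest total was the urea library of passage 8. Replicates are passages of 1 line, so p-values measure the spread between passages. With poly(A) RNA from whole wells, fewer cells that make a transcript and less transcript per cell cannot be told apart.

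The members took 2.24% ± 0.585 of all reads in the raffinose libraries, 1.32% ± 0.343 in the NaCl libraries, 0.265% ± 0.0438 in the urea libraries and 0.211% ± 0.0260 in the control libraries (SD, n = 12 each). A single gene, ENSCAFG00000013762, carried most of the first 2 of these shares. Without it the shares were 0.855% ± 0.195 with raffinose, 0.466% ± 0.0935 with NaCl, 0.246% ± 0.0421 with urea and 0.199% ± 0.0249 in the control. Most members were of low level. Averaged over raffinose and NaCl, 36 lay under 5 CPM, 41 between 5 and 100 CPM, and 8 at 100 CPM or more, with a median of 6.67 CPM. The median member was 1.75 times as high with raffinose as with NaCl, and NaCl reached less than 0.5 of the raffinose level in 23 members. The 3 members closest under the threshold had NaCl to raffinose ratios of 0.623, 0.624 and 0.624, and the 3 genes just outside it had 0.627, 0.628 and 0.630. Raffinose exceeded NaCl in all 12 pairs for 60 members, in 11 for 16 and in 10 for 9. All 12 raffinose libraries lay above all 12 NaCl libraries in 1 member, which was so for 0.0474% of the 12654 genes tested.

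The rule asks nothing of the control. The members' group means were highest with raffinose in 71 members, with urea in 11 and in the control in 3. NaCl gave the highest mean of no member and the lowest of 14, while the control was lowest in 37 and urea in 34. The control mean lay below the NaCl mean in 68 members, between NaCl and raffinose in 6, and above raffinose in 11. In most members NaCl stood above the control and raffinose stood higher still. Both treatments share the control libraries and chose the members, so the following fold changes (log2, with SE, from the 48-library edgeR fit) are descriptions without a p-value.

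With raffinose, 69 of the 85 members were at least 2-fold above the control, where 12.1% of all tested genes were, and 2 were at least 2-fold below it, where 10.1% of all were. With NaCl, 57 were at least 2-fold above the control (9.82% of all tested genes) and 8 at least 2-fold below it (7.83% of all). A 4-fold excess over the control was reached by 57 members with raffinose (4.39% of all) and 41 with NaCl (3.71% of all). The median log2 fold change of the members against the control was 2.89 with raffinose and 1.91 with NaCl, beside -0.02 for all tested genes in each comparison. All 12 raffinose libraries lay above all 12 control libraries in 54 members (9.80% of all genes), and all 12 NaCl libraries did so in 44 (9.30% of all). The raffinose shares follow in part from the rule, which asks for raffinose above NaCl. The rule also used the NaCl levels, so neither set of shares is independent of it.

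**Figure D1:**
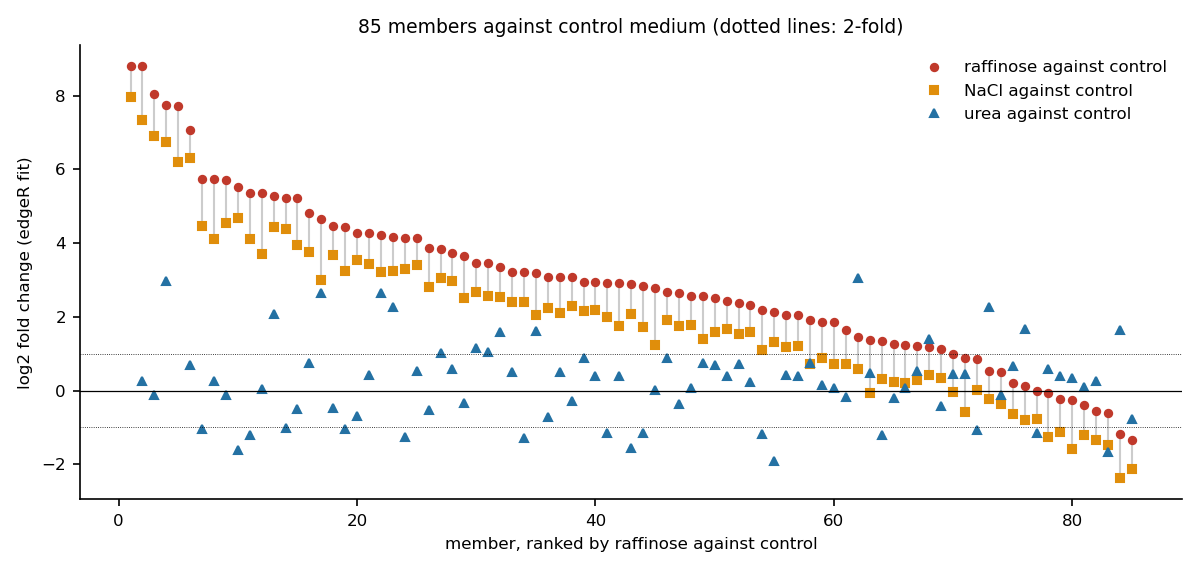
Log2 fold change against the control for the 85 members, ranked by the raffinose value; points stand for raffinose, NaCl and urea, and 2 members with at most 3 reads over the control and over the urea libraries have no urea point. Raffinose lies above NaCl throughout and the median is 2.89 for raffinose against 1.91 for NaCl, while the urea points lie between -1.92 and 3.04.

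Sorted by these fold changes, the members fell into 5 classes. The largest, 57 members, was at least 2-fold above the control with both solutes (9.44% of all tested genes were), with a median log2 fold change of 3.66 with raffinose and 2.68 with NaCl. In these genes both solutes, given separately, stood above the control, with raffinose above NaCl as the rule asks. A further 12 members (2.67% of all tested genes) were at least 2-fold above the control with raffinose alone. Their median was 1.36 with raffinose, from 1.12 to 1.92, and 0.38 with NaCl, from -0.06 to 0.87. In 6 members (0.695% of all tested genes) only the NaCl group stood at least 2-fold off the control, and it stood below it: the medians were -0.32 with raffinose and -1.30 with NaCl. In 2 members (7.14% of all tested genes) both solutes stood at least 2-fold below the control, with medians of -1.26 for raffinose and -2.26 for NaCl. The last 8 (76.7% of all tested genes) reached 2-fold with neither solute, at medians of 0.52 with raffinose and -0.47 with NaCl. Across all 85, the raffinose mean was above and the NaCl mean below the control, by sign of the fold change, in 7.

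The most abundant member was ENSCAFG00000013762, a gene of 10 merged exons on the minus strand of chromosome 7 (chr7:19668011-19674918; all coordinates are CanFam3.1). Its lowest, median and highest levels were 6212, 14527 and 21422 CPM with raffinose, 2797, 9324 and 12490 CPM with NaCl, 100.4, 185 and 312 CPM with urea and 56.8, 110 and 220 CPM in the control. The raffinose and NaCl ranges overlap, and both lie wholly above urea and control. Passages 5 and 8 were lowest in both the raffinose and the NaCl group. The log2 fold change against the control was 7.06 ± 0.27 with raffinose and 6.29 ± 0.26 with NaCl. Urea rose by 0.70 ± 0.21 against the control (edgeR, adjusted p = 0.00448; higher in 11 of 12 passages), a call that a minimum fold of 1.5 removes (glmTreat, adjusted p = 0.73). Per kilobase of exon, its raffinose level of 3762 CPM was the highest of all members.

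ENSCAFG00000008704 (chr30:6770135-6785062, plus strand, 22 exons) came next, at 1026 CPM per kilobase of exon with raffinose. It measured 2536, 3878 and 6822 CPM with raffinose, 1346, 2343 and 3378 CPM with NaCl, 335, 533 and 791 CPM with urea and 415, 745 and 1070 CPM in the control (lowest, median, highest). All raffinose and NaCl libraries lay above all urea and control libraries, while urea and control overlap. Against the control, the log2 fold change was 2.66 ± 0.17 with raffinose and 1.76 ± 0.16 with NaCl. Urea fell by 0.36 ± 0.16, lower in all 12 passages, but the adjusted p of 0.0499 (edgeR) lies at the threshold. The call was lost with 8 of the 12 passages left out in turn, at adjusted p-values up to 0.103. The main fit has no term for the pairing by passage, and with the passage number as a replicate block the call was kept.

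**Figure D2:**
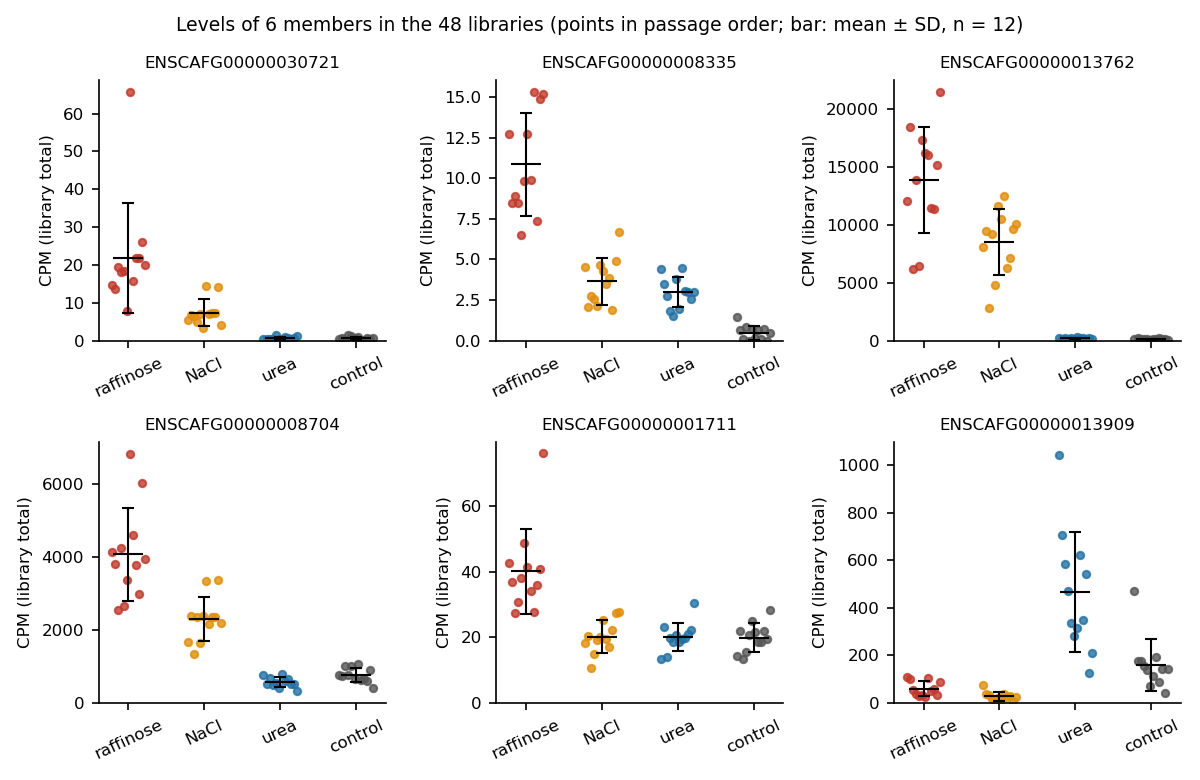
CPM of 6 members by library on linear axes from 0, with raffinose, NaCl, urea and control from left to right; points are the 12 libraries of a group and bars are mean ± SD. Raffinose has the highest mean in 5 panels, and in ENSCAFG00000013909 urea is highest and NaCl lowest; the raffinose library of passage 11 stands alone at 65.6 CPM in ENSCAFG00000030721.

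The gene with the greatest relative difference was ENSCAFG00000030721 (chr12:71801379-71809983, minus strand, 3 exons), 2.96 times as high with raffinose as with NaCl. It measured 7.93, 18.9 and 65.6 CPM with raffinose, 3.28, 6.86 and 14.4 CPM with NaCl, 0.333, 0.487 and 1.53 CPM with urea and 0.198, 0.584 and 1.52 CPM in the control (lowest, median, highest). One raffinose library, of passage 11, gave the 65.6 CPM, and the raffinose mean of 21.9 CPM was 17.96 CPM without it. Its fold changes against the control were 5.36 ± 0.32 with raffinose and 3.71 ± 0.33 with NaCl, on the log2 scale. The urea and control ranges overlap almost wholly, at 0.04 ± 0.46 on the log2 scale (edgeR adjusted p = 0.955). The urea and control libraries alone would not have passed this gene through the filter on low counts, and at this depth a difference within that error could not be seen. From start to end, the gene overlaps another gene on the other strand, and the counting took no account of strand. Where exons of the 2 genes share bases, their reads could not be told apart, but overlap of exons was not examined.

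ENSCAFG00000008335 (chr32:133974-140832, plus strand, 2 exons) was 2.92 times as high with raffinose as with NaCl, and its order among the groups differed. The lowest, median and highest values were 6.52, 9.87 and 15.3 CPM with raffinose, 1.90, 3.65 and 6.71 CPM with NaCl, 1.53, 2.997 and 4.47 CPM with urea and 0, 0.548 and 1.46 CPM in the control. Urea and NaCl thus stood at like levels, and all urea libraries exceeded all control libraries. The rise with urea was 2.64 ± 0.30 on the log2 scale (edgeR, adjusted p = 2.13e-10; higher in 12 of 12 passages), beside 4.65 ± 0.28 with raffinose and 3.01 ± 0.30 with NaCl.

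A minority of members was close to silent in the control, while 41 members reached 2 CPM there. The share of all genes at such low levels was not counted. The control mean was under 0.5 CPM in 23 members, the control and urea means both under 0.5 CPM in 17, and the control mean under 0.1 CPM in 6. ENSCAFG00000028703 (chr35:13354722-13397372, plus strand, 2 exons) had 609 reads over the 12 raffinose libraries, 385 over the NaCl libraries and 0 over the urea and over the control libraries. Its level was 4.69 ± 1.7 CPM with raffinose and 2.79 ± 0.87 CPM with NaCl (SD, n = 12 each). Set against 3 reads over all control libraries, the limit that a count of 0 allows, it was at least 209.9-fold higher with raffinose and at least 120.1-fold higher with NaCl than in the control. Such limits cover counting error only. ENSCAFG00000008366 (chr27:4727561-4731316, minus strand, 4 exons) measured 27.999 ± 14 CPM with raffinose, 24.1 CPM without its highest library, and 10.7 ± 4.1 CPM with NaCl (SD, n = 12 each), against 9 reads in 7 urea libraries and 8 reads in 3 control libraries. Its log2 fold change against the control was 8.79 ± 0.37 with raffinose and 7.34 ± 0.39 with NaCl, and for urea it was 0.26 ± 0.93 (edgeR adjusted p = 0.836). Neither gene passed a filter on the urea and control libraries alone.

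At the other end stand 2 members at least 2-fold below the control with both raffinose and NaCl. ENSCAFG00000013909 (chr6:8719546-8727277, minus strand, 9 exons) measured 23.4, 52.96 and 109 CPM with raffinose, 8.68, 24.3 and 75.8 CPM with NaCl, 126, 410 and 1046 CPM with urea and 41.7, 142 and 473 CPM in the control (lowest, median, highest). The group ranges of raffinose and control overlap, as do those of urea and control, and passage 1 was highest in all 4 groups. Within passages, raffinose exceeded the control in 0 of 12 pairs, as did NaCl. Its log2 fold change against the control was -1.18 ± 0.33 with raffinose, -2.38 ± 0.34 with NaCl and 1.63 ± 0.33 with urea, the last with an edgeR adjusted p of 3.37e-05 and higher in 12 of 12 passages. ENSCAFG00000015292 (chr5:30567598-30583456, plus strand, 8 exons) measured 8.85 ± 4.0 CPM with raffinose, 5.34 ± 1.8 CPM with NaCl, 14.3 ± 5.8 CPM with urea and 26.2 ± 9.6 CPM in the control (SD, n = 12 each). Here the control was highest, and the urea value of -0.78 ± 0.22 passed the edgeR test (adjusted p = 0.00243; lower in 12 of 12 passages). This gene also overlaps one on the other strand.

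Urea against control is the comparison between treatments that the rule did not use, and it was tested across all 12654 genes. Of the 85 members, 32 rose with urea and 16 fell at an adjusted p under 0.05 (edgeR quasi-likelihood test), and 37 did not pass. That makes 56.5% of the members called, beside 52.3% of all tested genes. By direction, 37.6% of the members rose, where 27.4% of all genes did, and 18.8% fell, where 24.9% did. This fit has no term for the pairing of libraries by passage. With the passage number as a replicate block, 38 rose and 17 fell (64.7% called, where 61% of all genes were). All 85 passed the filter on low counts in the 48-library fit, but 36 of them did so only with their raffinose and NaCl libraries counted in, and 8 of these 36 rose and 8 fell. The other 49 also passed a filter set on the urea and control libraries. Fitted on those 2 groups alone, 34 of the 49 were called (69.4%, where 53.4% of all genes were): 25 rose (51%, where 27% of all did) and 9 fell (18.4%, where 26.4% did). The distance to the background thus depends on the fit and on the genes tested. With no filter 49.4% of the members were called, beside 26.7% of all genes. That background is the 25518 genes with any read, against 12654 in the main fit, so it holds more genes of low level. With a minimum fold of 1.5 (glmTreat) 20% of the members were called, beside 9.21% of all genes. The members' median log2 fold change was 0.26, beside 0.02 for all genes, and the median of its size was 0.68, beside 0.25. At least 2-fold and called were 14 members that rose (2.73% of all genes) and 11 that fell (4.79% of all). All 12 urea libraries exceeded all 12 control libraries in 7 members (3.45% of all genes), and the reverse held in 0 (5.8% of all).

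Level matters to these counts, since a low gene needs a greater fold to pass. Among the 42 members under 2 CPM over the urea and control libraries, 9 rose (21.4%, where 14.3% of all genes of that level did) and 10 fell (23.8%, where 25.2% did). These 42 include the 36 members that passed the filter only through their raffinose and NaCl libraries, the groups that chose them. The shares of these lower members are therefore a description only. Among the 43 members at 2 CPM or more, 23 rose (53.5%, where 29% did) and 6 fell (14%, where 24.9% did). Called and at least 2-fold were 15 of the lower members (35.7%, where 21.8% were) and 10 of the higher ones (23.3%, where 5.75% were). Scaling by library totals alone moved the median of all genes by less than 0.1 on the log2 scale, but it lowered the share of rises among all called genes to 40.1%, against 52.3% with TMM factors. Among the called members that share was 63.0% with totals, against 66.7% with TMM factors.

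**Figure D3:**
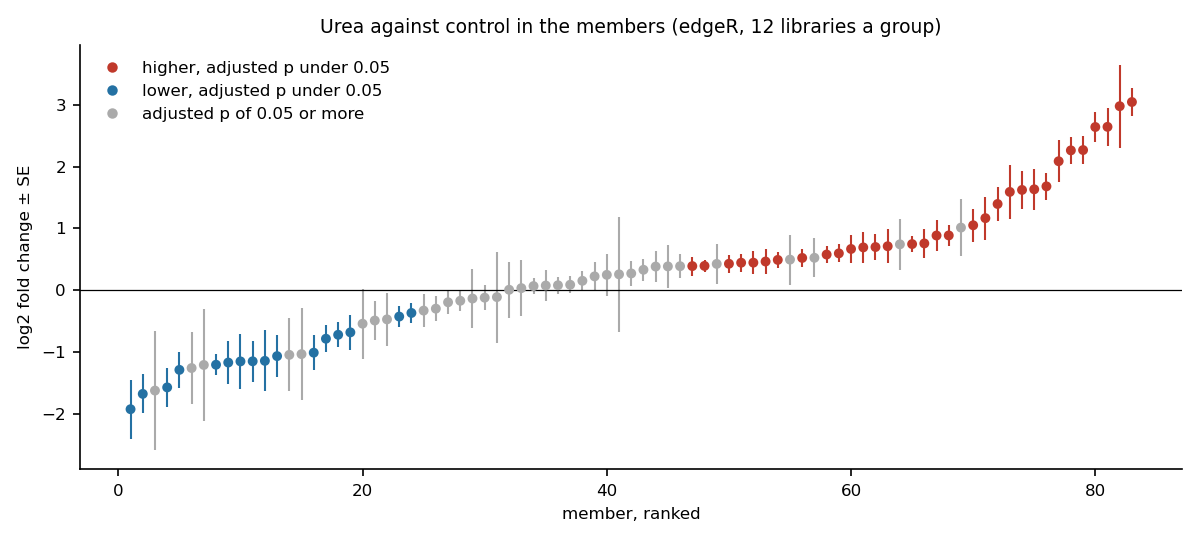
Log2 fold change of urea against the control, with SE bars, for the 83 members with more than 3 reads in either group, ranked; members with an adjusted p under 0.05 are red where higher with urea and blue where lower, and the others are grey. The 32 red and 16 blue members reach 3.04 and -1.92.

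The steepest rise with urea was in ENSCAFG00000013907 (chr6:8702021-8703874, plus strand, 2 exons). It measured 1.91, 5.38 and 10.5 CPM with raffinose, 2.31, 3.004 and 5.06 CPM with NaCl, 9.60, 17.96 and 39.96 CPM with urea and 1.43, 2.37 and 3.69 CPM in the control (lowest, median, highest). Every urea library lay above every control library. On the log2 scale the rise with urea was 3.04 ± 0.23 (edgeR adjusted p = 3.70e-16), beside 1.46 ± 0.24 with raffinose and 0.57 ± 0.24 with NaCl. ENSCAFG00000011465, a single-exon gene (chr27:22517570-22517968, minus strand), rose by 2.97 ± 0.67 with urea (edgeR adjusted p = 0.000188; higher in 10 of 12 passages). That call rests on 46 reads in 11 urea libraries, against 5 reads in 3 control libraries, and the gene passed the filter on low counts only through its raffinose and NaCl libraries. With raffinose and NaCl its levels were 9.17 ± 5.0 and 4.85 ± 2.1 CPM (SD, n = 12 each).

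The deepest fall with urea was in ENSCAFG00000032767 (chr8:71773821-71775125, plus strand), by 1.92 ± 0.48 on the log2 scale (edgeR adjusted p = 0.000625; lower in 10 of 12 passages). The urea libraries held 0, 0.257 and 1.19 CPM and the control libraries 0.203, 0.749 and 4.86 CPM (lowest, median, highest), so the groups overlap. The 4.86 CPM came from the control of passage 19, and the control mean of 1.16 CPM was 0.826 CPM without it. With passage 19 left out of the fit the value was -1.29. This gene, too, passed the filter on low counts only through its raffinose and NaCl libraries, and it shares bases with another gene on the same strand. ENSCAFG00000018931 (chr6:31775808-31813546, minus strand, 20 exons) measured 4.37 ± 2.2 CPM with raffinose, 2.46 ± 1.5 CPM with NaCl, 2.18 ± 1.2 CPM with urea and 7.65 ± 2.3 CPM in the control (SD, n = 12 each). It fell by 1.67 ± 0.31 with urea (edgeR adjusted p = 1.21e-05; lower in 12 of 12 passages), and stood at -0.60 ± 0.30 with raffinose and -1.49 ± 0.31 with NaCl. NaCl and urea were at like levels in this gene, and raffinose lay between them and the control.

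ENSCAFG00000001711 (chr10:28743753-28752012, minus strand, 5 exons) was among the members at least 2-fold above the control with raffinose alone. It measured 27.4, 37.5 and 76.2 CPM with raffinose, 10.5, 19.8 and 27.6 CPM with NaCl, 13.5, 19.6 and 30.3 CPM with urea and 13.3, 20.1 and 28.2 CPM in the control (lowest, median, highest). The other 3 groups overlap almost wholly, and raffinose overlaps them only at its low end. On the log2 scale its differences from the control were 1.25 ± 0.14 with raffinose, 0.20 ± 0.14 with NaCl and 0.08 ± 0.14 with urea (edgeR adjusted p = 0.650 for urea).

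Rises and falls with urea occurred in each of the 5 classes. For comparison, 27.4% of all tested genes rose and 24.9% fell, and the difference between classes was not tested. The classes and the urea values share the same control libraries, so they are not independent. The 36 members that passed the filter only through their raffinose and NaCl libraries all lie in the class of 57. Of the 57 members at least 2-fold above the control with both solutes, 21 rose with urea, 10 fell and 26 did not pass, with a median of 0.25. Of the 12 at least 2-fold above it with raffinose alone, 3 rose, 2 fell and 7 did not pass. Of the 6 at least 2-fold below the control with NaCl alone, 2 rose, 1 fell and 3 did not pass, and of the 2 below it with both 1 rose and 1 fell. In the last class of 8, 5 rose, 2 fell and 1 did not pass.

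Applied in mirror image, with the roles of raffinose and NaCl exchanged, the rule finds 88 genes. With raffinose 6 of them stood at least 2-fold above the control and 63 at least 2-fold below it, and with NaCl 9 stood above and 46 below. Their median log2 fold change was -1.79 with raffinose and -1.02 with NaCl, so both solutes lay mainly on the low side, where the 85 members lay mainly on the high side. With urea, 20 of these 88 rose (22.7%) and 20 fell (22.7%), at a median of 0.04. The members' shares were 37.6% and 18.8%; the difference between the sets was not tested.

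The raffinose excess was present at every passage. The median over members of the log2 ratio of raffinose to NaCl lay between 0.74, at passage 17, and 1.01, at passage 19, where all 85 members were higher with raffinose. The lowest count was 79 members, at passage 8. Over all genes of the level criterion, which were not chosen by this ratio, the same median lay between -0.12 and 0.00.

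**Figure D4:**
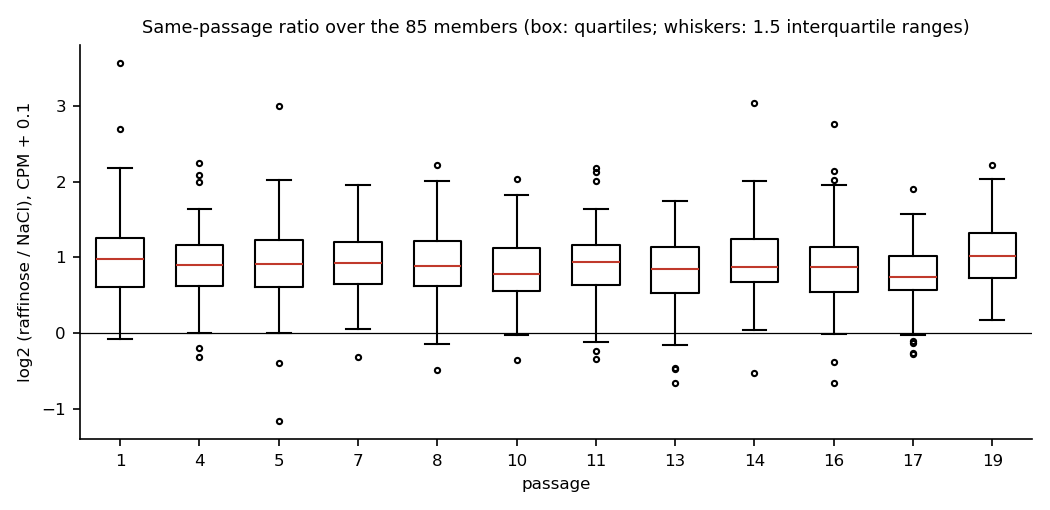
Log2 ratio of raffinose to NaCl CPM for the 85 members at each of the 12 passages, as box plots. The medians run from 0.74 at passage 17 to 1.01 at passage 19. The boxes lie above 0 at every passage, which the rule largely fixed.

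Members varied between passages. The median coefficient of variation was 34.9% with raffinose (85 members) and 34.3% with NaCl (69 members at 2 CPM or more), and it was 28.2% with urea (45 members) and 28.1% in the control (41 members). Over all genes at 2 CPM or more it was 17.5%, 14.9%, 15.2% and 14.5% in the same order, without matching for level. Passage 1 was the highest of the 12 for 29 members with raffinose (7.24% of genes of the level criterion), for 19 with NaCl (5.90%), for 23 with urea (11.3%) and for 16 in the control (9.4%). In 8 members it was highest in all 4 groups.

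A trend with passage was tested in the 24 urea and control libraries, which the rule did not use. Of 49 members tested, 1 rose with passage (3.86% of all genes did) and 8 fell (4.63% of all did) at an adjusted p under 0.05 (edgeR). That is 18.4% of the members, beside 8.49% of the 12005 genes tested. This count rests on passage 1. Without it, 0 members passed (9 at an unadjusted p under 0.05), as did 0.451% of all genes. The fit also counted the 2 libraries of a passage as independent. The urea and control libraries of a passage deviated together (mean r 0.403), so its p-values can be too small. With the 2 libraries of a passage summed, 0 members passed (16 unadjusted), as did 0.124% of all genes. The p-values for passage slopes of single members below share this limit. The median slope was -0.17 per 10 passages on the log2 scale, beside 0.01 for all genes.

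The member that rose was ENSCAFG00000001711, by 0.34 ± 0.089 per 10 passages (edgeR adjusted p = 0.0204), with 0.29 and an adjusted p of 0.189 without passage 1. The 2 members with the steepest falls were highest at passage 1. ENSCAFG00000013843 (chr26:28195081-28226700, plus strand, 10 exons) fell by 1.16 ± 0.36 per 10 passages (edgeR adjusted p = 0.0408). DESeq2 gave an adjusted p of 0.157, and without passage 1 the gene did not pass the filter on low counts. At passage 1 it measured 5.28 CPM with raffinose, 3.99 with NaCl, 4.90 with urea and 4.76 CPM in the control. The group means were 3.32 ± 0.93 CPM with raffinose, 1.5 ± 0.84 with NaCl, 1.56 ± 1.3 with urea and 0.999 ± 1.3 CPM in the control, and the control mean was 0.657 CPM without passage 1. ENSCAFG00000030990 (chr30:37009857-37022163, minus strand, 3 exons) fell by 1.06 ± 0.23 per 10 passages (edgeR adjusted p = 0.00584), and its slope was -0.45 without passage 1 (adjusted p = 0.417). It was lower with urea than in the control at all 12 passages (-1.15 ± 0.33, edgeR adjusted p = 0.00294), at 0.947, 2.91 and 16.7 CPM with urea and 3.18, 9.28 and 28.3 CPM in the control (lowest, median, highest). With raffinose it stood level with the control (-0.02 ± 0.31), and with NaCl at -0.78 ± 0.32.

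**Figure D5:**
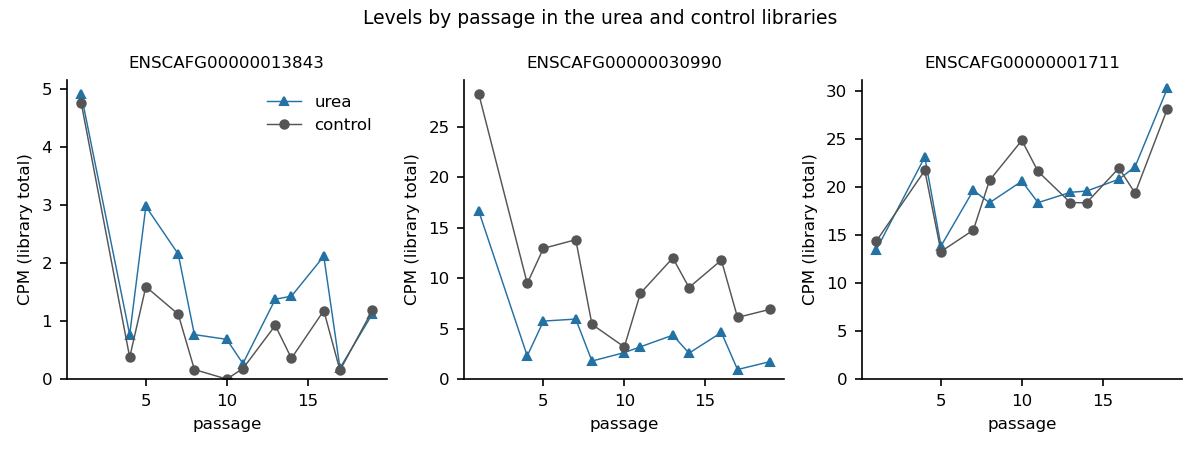
CPM of 3 members called for a trend with passage, plotted against passage number for the urea and control libraries. ENSCAFG00000013843 and ENSCAFG00000030990 are highest at passage 1 in both groups, and ENSCAFG00000001711 shows a shallow rise of 0.34 per 10 passages on the log2 scale.

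The median exon length of the members was 2523 bases, beside 2293 for all tested genes. Their median span from start to end was 13160 bases, beside 19670, and they had a median of 8 merged exons, beside 9. Of the members 8.24% had a single exon (6.89% of all), 28.2% had at most 3 (20.8% of all), and 31.8% overlapped another gene (31.8% of all). They lay on 33 chromosomes or scaffolds, 1 of them on an unplaced scaffold. The chromosome with most members was 18, with 7 of its 429 tested genes (1.63%), beside 85 of all 12654 tested genes. Chromosome 19 had a higher share, with 3 of its 120 tested genes (2.5%). In 2 places members were direct neighbours among the tested genes. ENSCAFG00000038146 (chr24:19676321-19683878, minus strand) and ENSCAFG00000006811 (chr24:19686909-19695543, plus strand) face away from each other across 3030 bases, and their levels differed. The first held 2.93 CPM with raffinose, 1.65 with NaCl, 2.12 with urea and 2.42 CPM in the control. The second held 5.07 CPM with raffinose, 2.22 with NaCl, 0.0402 with urea and 0.0892 CPM in the control.

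ENSCAFG00000013828 (chr26:28141076-28150600, plus strand, 2 exons) and ENSCAFG00000013843 lie 44480 bases apart on the same strand. The first was nearly silent without NaCl or raffinose, with 8.88 CPM with raffinose, 4.13 with NaCl, 0.166 with urea and 0.189 CPM in the control. The second, given above, was not. ENSCAFG00000013907 and ENSCAFG00000013909, a pair singled out after their values were seen, lie 15671 bases apart on chromosome 6 with 1 tested gene between them. Both rose with urea, by 3.04 and 1.63 on the log2 scale, and they lay on opposite sides of the control with raffinose (1.46 and -1.18).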

How the data were processed

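Single-read poly(A) libraries were made with an unstranded kit, per the labels' protocols. The authors deposited raw read counts per gene, and per the submitters' processing notes CASAVA, HISAT2 2.0.5 and featureCounts 1.5.1 were among their tools. Per the file headers, counting used exons of the Ensembl release 87 annotation (CanFam3.1) with no regard to strand. Of the 48 value columns, 0 were left unused, and 0 rows named no gene. Columns of passage 10 carry an extra number of unknown meaning. A gene at 1 CPM had from 3.915 to 16.16 reads per library.

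CPM used plain library totals. Counts were fitted in edgeR 4.0.16 (R 4.3.3) with TMM factors, filterByExpr and a term for the group over 48 libraries (quasi-likelihood test, Benjamini-Hochberg, threshold 0.05). The passage fit used 24 libraries. Alternatives were DESeq2 1.42.0, RLE factors, library totals, other filters and pseudocounts, glmTreat (fold 1.5), the passage block, a linear passage term and passages left out. The fits were tested on simulated data.

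The passage labels pair the libraries: same-passage pairs deviated together (mean r 0.386 over 72 pairs, 67 of them over 0.1; other pairs -0.034). The lowest chi-square per gene between libraries of a group was 4.99, so each counts once. No symbol could be found for the 32704 identifiers (0 matched), so the prepared gene and marker lists were not applied. Named are, with at most 2 per part, members with the lowest NaCl to raffinose ratio, the highest level, the extreme fold changes (urea or raffinose against control) or passage slopes, and neighbours. Members and lists were chosen with earlier results of these data known.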

Additional observations from a re-analysis of the deposited data

How the results depend on the processing

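The 32 rises and 16 falls of members with urea (48 in all) changed little with RLE factors, library totals, no filter, DESeq2, a linear passage term or without the library of lowest total (42 to 50 in all, where 26.7% to 53.7% of all genes were called). The 26.7% belongs to the fit with no filter, over the 25518 genes with any read. With the passage number as a replicate block, 38 rose and 17 fell, 55 in all (64.7%, where 61% of all genes were called), among them all 48 calls made without the block. It changed no named call except ENSCAFG00000013843 (0.73, edgeR adjusted p = 0.0208; 0.74 and 0.125 without the block). Fewer genes tested, at a mean of at least 5 CPM, left 20 rises and 7 falls. That is 27 in all, 65.9% of those tested, where 54.4% of all genes were called. This mean counted in the raffinose and NaCl libraries, the groups that chose the members. ENSCAFG00000008366 was still tested there, at mean levels of 0.0893 CPM with urea and 0.0634 CPM in the control. The 65.9% is therefore a description only. The urea and control libraries alone left 9 falls. A minimum fold of 1.5 left 12 rises and 5 falls (17 in all, 20%, where 9.21% of all genes were called). Each passage left out in turn gave 42 to 47 calls, 29 to 32 rises and 12 to 16 falls.

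The passage trend (1 rise, 8 falls) became 0 and 0 with counts summed per passage and without passages 1 and 19, and 5 falls at a mean of at least 5 CPM. Leaving out passages in turn gave 0 to 12 calls, 0 to 2 rises and 0 to 11 falls. Without passage 5 there were 0 rises and 5 falls, without passage 17 5 falls, and without passage 16 2 rises.

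The rule gave 128 genes on TMM-scaled and 130 on RLE-scaled CPM, which hold all 85 members, 49 genes at a mean of at least 5 CPM, and 78 to 98 without single passages. The urea value of ENSCAFG00000030721, not called, was -0.038 with library totals, -0.046 without the library of lowest total, and -0.14 to 0.27 without single passages. That of ENSCAFG00000013828 ran from -0.31 to 0.053, and that of ENSCAFG00000008366 from -0.11 to 0.84. The cause of these changes was not tested. Members near 2 CPM had few reads per library, which limits their precision.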
